A study of Arabidopsis thaliana with 8 samples.

Results

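*TT2* OE, an Arabidopsis line that expresses *TT2* from the CaMV 35S promoter, was compared with the Col-0 wild type over all genes of the deposited count table. The comparison is between 6 of the 8 libraries of the series, O2, R2 and U2 of *TT2* OE and M2, P2 and S2 of Col-0. The other 2 libraries (N2 and Q2) are of *MYB5* OE. They entered the same fit and helped to set its spread. The libraries are named by the codes in their titles, and values are given throughout in the order M2, P2, S2 and O2, R2, U2. The codes run in 3 rounds of consecutive letters, and O2 was paired with M2, R2 with P2 and U2 with S2. The transgene itself, *TT2* (AT5G35550), was left out of all counts of genes.

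The study asked which genes respond to *TT2* and *MYB5*, 2 related MYB factors that it connected with heat tolerance. RNA was taken from whole seedlings 6 days old that had grown on half-strength MS agar in vitro under an 8 h photoperiod at 22 °C, with no treatment. Col-0 was the untransformed wild type, and *TT2* OE carried the 35S transgene, introduced into Col-0 by floral dip. *MYB5* OE was the matching line for *MYB5*. The 35S promoter is active in most tissues, whereas *TT2* is normally a seed coat gene, and the labels do not say which independent transformant was sequenced, so that effects of *TT2* and of 1 insertion or 1 line cannot be told apart.

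TT2 is an R2R3-MYB transcription factor that joins the bHLH protein TT8 and the WD40 protein TTG1 in the MYB-bHLH-WD40 (MBW) complex. In the seed coat this complex switches on the late flavonoid genes that turn dihydroflavonols into flavan-3-ols, the units of the proanthocyanidins that brown the seed. The early genes of the pathway, which make chalcone, flavanones and flavonols, are driven mostly by other MYB factors.

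A library held between 35496351 and 48428855 counts, and between 7.57% and 9.82% of these fell on its 10 top genes. Values are CPM, counts scaled to the size of the library and not to gene length, so that they compare 1 gene between libraries and not genes with each other. *TT2* was at 0.316, 0.0623 and 0.192 CPM in Col-0 and at 516, 466 and 516 CPM in *TT2* OE, which set the genotypes apart in every library. Summed levels of 10 leaf photosynthesis genes lay between 59811 and 64886 CPM in Col-0 and between 60779 and 73099.6 CPM in *TT2* OE, and those of 15 root hair genes between 196 and 313 CPM in Col-0 and between 198 and 320.0 CPM in *TT2* OE. Leaf and root markers were thus present at overlapping levels in both genotypes. Since whole seedlings were sequenced, fewer cells of a type and less RNA per cell cannot be told apart in any value given here.

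Of 20381 genes tested, 141 were higher in *TT2* OE than in Col-0 (0.692% of the genes tested) and 145 were lower (0.711%), by edgeR's quasi-likelihood test with round as a term and a Benjamini-Hochberg adjusted p under 0.05. Ratios are fitted log2 ratios of *TT2* OE over Col-0 ± their standard error. They compare 3 libraries of each genotype in a fit over all 8 libraries, *MYB5* OE included, and a gene is called where it passed this test. The gene lists below also give members at an unadjusted p under 0.05, a loose cut. In a fit that differed only in its scaling (relative log expression factors), 1457 of all genes were higher and 1130 lower at this cut. DESeq2 at its adjusted cut called 244 higher and 187 lower over all genes. The called changes were mostly small. The median log2 ratio was 0.75 in size among the higher genes and 0.61 among the lower, and 46 higher and 38 lower genes changed by more than 2-fold. In 283 of the 286 genes the difference had the same sign in all 3 rounds. A test with round as a term favours genes whose differences within rounds agree, so that this count is no further support for the calls. The libraries of the genotypes did not overlap in 54 of the higher and 87 of the lower genes, against 2.02% of all genes with every *TT2* OE library above every Col-0 library and 2.71% with every one below. Overlap came with large differences between the rounds: in 142 of the 286 genes the 3 Col-0 libraries differed among themselves by more than *TT2* OE differed from Col-0. With genotype alone in the model the test called 0 genes higher (129 at an unadjusted p under 0.05) and 1 lower, *TOPP4*, so that nearly all calls rest on the pairing by round. Leaving out R2 lowered the counts most, to 31 higher and 23 lower genes, and 25 higher and 17 lower genes were called whichever library was left out. Round 3 holds only S2 and U2, so that a fit without either has no comparison within round 3. The fits without S2 and without U2 are therefore nearly the same and count as 1 check, here and below.

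**Figure D1:**
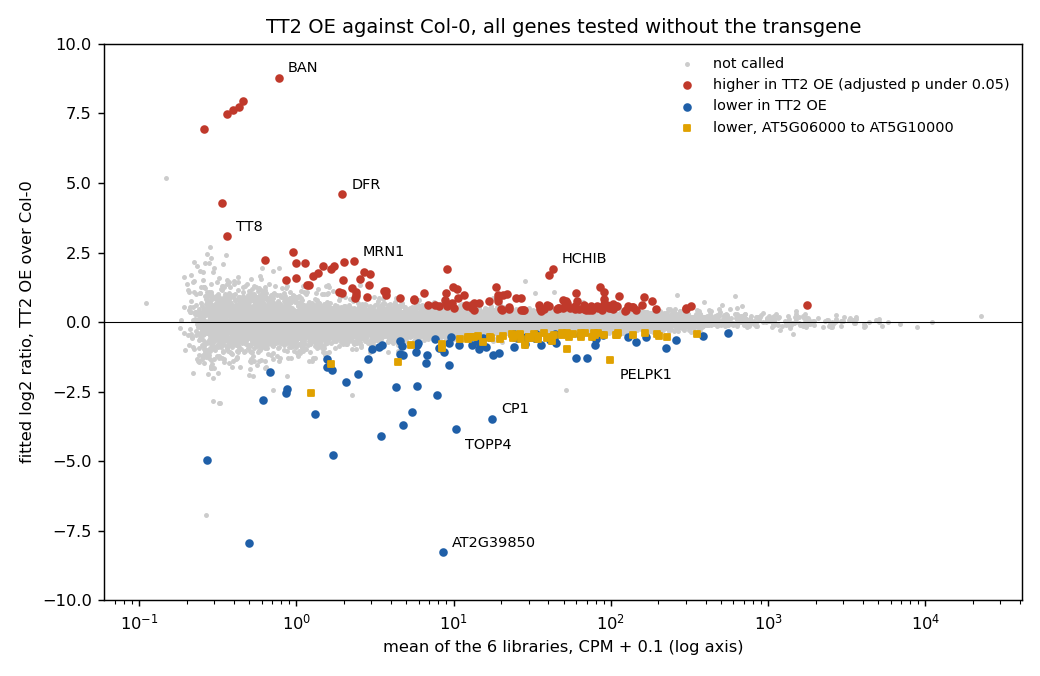
Fitted log2 ratio of *TT2* OE over Col-0 (vertical axis) against mean level in CPM + 0.1 over the 6 libraries (horizontal axis, log scale) for the 20381 genes tested; grey points were not called, red points were higher and blue points lower in *TT2* OE, and ochre squares are lower genes between AT5G06000 and AT5G10000. *BAN* and *DFR* stand at the top, AT2G39850, *TOPP4* and *CP1* at the bottom, and the ochre squares form a band of small falls.

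Genes of the late flavonoid pathway rose in *TT2* OE. Of 7 tested late flavonoid and proanthocyanidin genes, 4 were higher (*BAN*, *DFR*, *LDOX* and *TT19*) and 0 lower, with a median log2 ratio of 2.22 against 0.00096 over all genes tested (5 higher and 0 lower at an unadjusted p under 0.05, 4 and 0 by DESeq2). *DFR*, whose enzyme makes leucoanthocyanidins from dihydroflavonols, was at 0.0526, 0.416 and 0 CPM in Col-0 and at 3.03, 3.62 and 4.01 CPM in *TT2* OE. The 3 *TT2* OE libraries lay close together and far above Col-0 (log2 ratio 4.59 ± 0.55, adjusted p = 0.00183). *BAN* encodes anthocyanidin reductase, which opens the branch to proanthocyanidins. It had 0 counts in all 3 Col-0 libraries and stood at 1.72, 0.926 and 1.38 CPM in *TT2* OE, at least 60.7-fold higher when Col-0 is given a floor of 3 counts in all (adjusted p = 0.00157). *LDOX*, the dioxygenase between *DFR* and *BAN*, was at 0.21, 0.499 and 0.0641 CPM in Col-0 and at 1.68, 0.979 and 1.68 CPM in *TT2* OE. *TT19*, a glutathione transferase that helps flavonoids reach the vacuole, was at 0.158, 0.291 and 0.107 CPM in Col-0 and at 1.25, 1.06 and 0.325 CPM in *TT2* OE. Neither gene's libraries overlapped (log2 ratio 2.53 ± 0.52, adjusted p = 0.0354 for *LDOX*, and log2 ratio 2.22 ± 0.46, adjusted p = 0.0395 for *TT19*), and *TT19* overlaps a neighbouring gene on the other strand by 108 bases. The lowest *TT2* OE value of *LDOX* was in R2 and that of *TT19* in U2.

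The other late genes tested were not called. *AHA10*, a proton pump of the seed coat, was at 1.1, 1.45 and 2.05 CPM in Col-0 and at 2.82, 2.54 and 2.63 CPM in *TT2* OE, without overlap but with an adjusted p of 0.16. The laccase gene *TT10* (log2 ratio 0.35, adjusted p = 0.612) and the sterol glucosyltransferase gene *UGT80B1* (log2 ratio -0.20, adjusted p = 0.456) had overlapping groups, and the transporter gene *TT12* had too few counts to be tested. The calls on *BAN* and *DFR* held whichever of the 6 libraries was left out. With 1 library left out, the test ended the calls on *LDOX* (M2, O2, S2 or U2, adjusted p from 0.0934 to 0.185) and *TT19* (any of the 6, adjusted p from 0.0537 to 0.22). The fitted folds of *DFR* and *LDOX* moved by a factor of more than 1.5 without single libraries (log2 ratios of 6.99 without P2, 6.16 without R2, 3.86 without S2 and 3.89 without U2 for *DFR*, and of 3.56 without P2, 3.43 without R2, 1.88 without S2 and 1.88 without U2 for *LDOX*).

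Among 17 tested partners of TT2 and flavonoid regulators, 2 were higher and 0 lower (median 0.24, 7 higher and 0 lower at an unadjusted p under 0.05, 4 and 0 by DESeq2). *TTG2*, a WRKY gene that acts in seed coat and trichomes, rose from 2.45, 2.16 and 2.09 CPM to 5.01, 4.66 and 4.77 CPM (log2 ratio 1.11 ± 0.18, adjusted p = 0.0122). *TT8*, the bHLH partner of TT2, rose from 0.0789, 0.0208 and 0.0641 CPM to 0.366, 0.609 and 0.433 CPM (log2 ratio 3.08 ± 0.61, adjusted p = 0.0294). Both had every *TT2* OE library above every Col-0 library, although *TT8* stayed low in all of them. *TTG1*, the WD40 partner, was at 46, 51.1 and 44.3 CPM in Col-0 and at 57.3, 61.3 and 49.1 CPM in *TT2* OE (log2 ratio 0.24, adjusted p = 0.23). *MYBL2*, a repressor of the pathway, was at 172, 68.8 and 29.1 CPM in Col-0 and at 203, 93.8 and 39.5 CPM in *TT2* OE, above its partner in each round though the rounds stood far apart (log2 ratio 0.37, adjusted p = 0.0721). *HY5*, the bZIP factor of light signalling, was also above its Col-0 partner in each round without a call (log2 ratio 0.45, adjusted p = 0.0537), and both *MYBL2* and *HY5* were called by DESeq2. *PAP1*, the MYB factor of anthocyanin synthesis, had a log2 ratio of -0.08. Omitting 1 library ended the calls on *TTG2* (O2, P2 or R2, adjusted p from 0.064 to 0.0878) and *TT8* (any of the 6, adjusted p from 0.0684 to 0.226). The fitted ratio of *TT8* was 2.41 without P2.

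Genes of the early pathway were mostly not called. Of 11 tested early flavonoid and flavonol genes, 0 were higher and 1 lower, with a median of -0.01 (2 higher and 2 lower at an unadjusted p under 0.05, 0 and 1 by DESeq2). *TT4*, chalcone synthase, was at 19.3, 74.8 and 7.89 CPM in Col-0 and at 44.6, 84.4 and 28.3 CPM in *TT2* OE. It was above its partner in each round, most in O2 and U2, and was not called (log2 ratio 1.08 ± 0.27, adjusted p = 0.0841), though the call was made when R2 was left out. *FLS1*, flavonol synthase, was the lower gene, at 6.29, 23.3 and 2.78 CPM in Col-0 and at 4.0, 11.6 and 1.87 CPM in *TT2* OE (log2 ratio -0.77 ± 0.14, adjusted p = 0.0167), and it lies on chromosome 5 between AT5G06000 and AT5G10000. *TT7*, the flavonoid 3'-hydroxylase, lies there too and had a log2 ratio of 0.33 (adjusted p = 0.343). Without 1 library or another the test ended the call on *FLS1* (M2, P2 or R2, adjusted p from 0.0848 to 0.283). The 3 tested anthocyanin decoration genes had 0 calls (0 at an unadjusted p under 0.05, 0 by DESeq2).

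**Figure D2:**
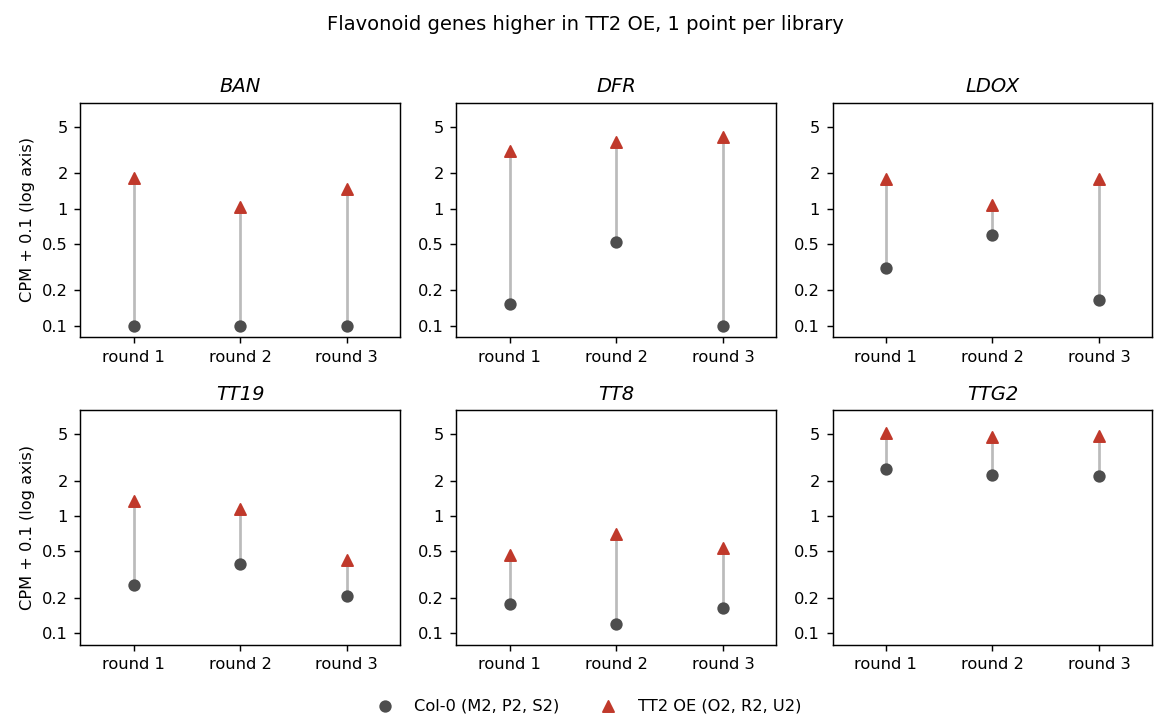
Level in CPM + 0.1 (vertical log axes) of flavonoid genes and regulators in each Col-0 and *TT2* OE library, with points joined within a round. *BAN*, *DFR*, *LDOX*, *TT19* and *TT8* are higher in the 3 *TT2* OE libraries than in the 3 Col-0 libraries.

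The promoters of the 6 called late genes and regulators, of *HCHIB* (the strongest rise by p outside the pathway) and of *CP1* (a large fall) are shown as examples. MYB factors and their bHLH partners have known target letters. Each is the 250 bases before the annotated start in RefSeq's annotation of TAIR10.1, 5′ to 3′ on the gene's strand. Capitals mark AC-rich elements (ACC or CCC, followed by AA or TA and ended by A or C) and MYB cores (C or T, followed by any base and by GTTA or GTTG) on either strand, and overlapping or adjoining matches run together. Their positions were *BAN* chr1:22792804-22793053 (minus strand), *DFR* chr5:17166033-17166282 (minus strand), *LDOX* chr4:12006210-12006459 (minus strand), *TT19* chr5:5658166-5658415 (plus strand), *TT8* chr4:6181631-6181880 (plus strand), *TTG2* chr2:15644561-15644810 (plus strand), *HCHIB* chr3:3963985-3964234 (minus strand) and *CP1* chr4:17376280-17376529 (minus strand).
BAN: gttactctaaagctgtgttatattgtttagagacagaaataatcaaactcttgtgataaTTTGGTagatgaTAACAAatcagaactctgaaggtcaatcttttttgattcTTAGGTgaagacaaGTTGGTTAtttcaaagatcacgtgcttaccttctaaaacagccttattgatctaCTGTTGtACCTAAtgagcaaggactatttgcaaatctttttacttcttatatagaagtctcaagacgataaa
DFR: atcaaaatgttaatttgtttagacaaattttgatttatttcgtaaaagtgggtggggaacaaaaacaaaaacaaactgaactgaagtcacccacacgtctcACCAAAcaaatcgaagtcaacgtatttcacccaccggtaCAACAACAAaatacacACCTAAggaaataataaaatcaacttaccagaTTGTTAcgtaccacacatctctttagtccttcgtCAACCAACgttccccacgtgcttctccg
LDOX: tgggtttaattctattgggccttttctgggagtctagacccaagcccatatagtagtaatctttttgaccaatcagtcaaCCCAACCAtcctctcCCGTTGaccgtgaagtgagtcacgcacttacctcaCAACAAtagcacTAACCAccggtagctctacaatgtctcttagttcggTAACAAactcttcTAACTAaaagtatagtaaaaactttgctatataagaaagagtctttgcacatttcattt
TT19: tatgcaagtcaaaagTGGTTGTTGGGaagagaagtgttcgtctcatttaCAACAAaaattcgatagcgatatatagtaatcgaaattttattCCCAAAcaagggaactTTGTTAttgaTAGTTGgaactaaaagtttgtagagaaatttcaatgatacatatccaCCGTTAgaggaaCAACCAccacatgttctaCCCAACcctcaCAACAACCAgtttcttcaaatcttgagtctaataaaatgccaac
TT8: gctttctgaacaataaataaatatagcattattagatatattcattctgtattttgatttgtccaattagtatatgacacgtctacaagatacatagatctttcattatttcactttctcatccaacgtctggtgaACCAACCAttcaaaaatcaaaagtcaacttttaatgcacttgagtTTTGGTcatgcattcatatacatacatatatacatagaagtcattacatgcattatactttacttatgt
TTG2: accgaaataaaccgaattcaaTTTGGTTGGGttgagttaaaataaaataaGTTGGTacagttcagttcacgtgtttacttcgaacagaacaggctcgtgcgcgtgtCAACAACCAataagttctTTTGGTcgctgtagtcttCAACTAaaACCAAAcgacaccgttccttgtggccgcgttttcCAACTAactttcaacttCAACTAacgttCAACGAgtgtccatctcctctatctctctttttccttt
HCHIB: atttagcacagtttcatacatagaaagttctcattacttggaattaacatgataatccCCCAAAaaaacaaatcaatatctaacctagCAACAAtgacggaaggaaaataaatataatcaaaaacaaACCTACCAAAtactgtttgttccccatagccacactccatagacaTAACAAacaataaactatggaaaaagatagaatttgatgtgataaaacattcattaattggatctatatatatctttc
CP1: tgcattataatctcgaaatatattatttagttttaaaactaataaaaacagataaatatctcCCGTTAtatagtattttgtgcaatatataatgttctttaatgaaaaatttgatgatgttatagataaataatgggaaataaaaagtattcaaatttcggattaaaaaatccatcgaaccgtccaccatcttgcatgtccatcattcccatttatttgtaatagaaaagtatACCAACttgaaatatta

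The *BAN* promoter held 4 AC-rich elements and 3 MYB cores, the nearest to the start 65 and 72 bases before it, and a G-box (CACGTG) 108 bases before the start. *DFR* held 3 AC-rich elements and 4 MYB cores, with a G-box 14 bases before the start. *TT19* had the most MYB cores (9) and *TTG2* the most AC-rich elements (5) of these 8 promoters, and *TT8* had 2 AC-rich elements and 1 MYB core. *CP1*, which fell, also held 1 of each. *EXPA2* and *TOPP4*, which fell too and are not printed, each held 3 AC-rich elements and 4 MYB cores, as many as *DFR*. Of the rises searched but not printed, *BCB* held 3 AC-rich elements and 3 MYB cores, and *PSK2* held 3 and 1. Such matches are common. In windows from 250 bases before to 50 after the start, 74.9% of 20302 promoters of tested genes held an AC-rich element and 91.1% a MYB core. Among the higher genes the shares were 74.5% (95% exact interval 66.4% to 81.4%) and 90.8% (84.7% to 95%), and among the lower genes 79.3% (71.6% to 85.7%) and 92.9% (87.3% to 96.5%). An E-box (CANNTG, which includes the G-box) was in 64.5% of promoters of higher genes, 62.9% of lower and 62.4% of all, and a G-box in 12.8% (7.74% to 19.4%), 10% and 8.85%. The site II element (TGGGCC or TGGGCT), which the study followed in the *HSFA2* promoter, was in 12.8% of higher genes (7.74% to 19.4%), 16.4% of lower genes and 24.9% of all. Among lower genes it was in 8.75% outside and 26.7% inside the stretch AT5G06000 to AT5G10000, and with only the bases before the start searched these shares were 3.75% and 20%, and 10.7% over all lower genes. These shares describe letters in a window, and no test of enrichment was made. The study reported the site II element as enriched in promoters of genes raised in *TT2* OE. Its gene list, motif and window differed from those used here, so that these shares do not test its report.

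Genes outside the flavonoid pathway were called higher as well. *HCHIB*, a basic chitinase, was at 18.203, 15.69 and 19.3 CPM in Col-0 and at 69.1, 57.8 and 75 CPM in *TT2* OE. The genotypes were far apart in each round, and this gene had the smallest p of all rises (log2 ratio 1.92 ± 0.10, adjusted p = 5.37e-07). *BCB*, a blue copper-binding protein of the cell surface, was at 34.5, 14.6 and 5.66 CPM in Col-0 and at 125, 45.3 and 17.3 CPM in *TT2* OE (log2 ratio 1.70 ± 0.10, adjusted p = 2.39e-06). Its groups overlapped and its level differed between rounds in both genotypes, while the ratio within rounds stayed similar. AT2G27380, annotated as a proline-rich extensin, was at 2.34, 4.28 and 4.79 CPM in Col-0 and at 13.8, 15.6 and 12.6 CPM in *TT2* OE, with no overlap (log2 ratio 1.90 ± 0.19, adjusted p = 0.000549). *CYP702A6*, a cytochrome P450 gene, was at 0.50, 0.769 and 0.705 CPM in Col-0 and at 2.65, 2.41 and 2.84 CPM in *TT2* OE (log2 ratio 2.01 ± 0.27, adjusted p = 0.00402), and again the groups stood apart. *STR18*, a sulfurtransferase, was at 34.1, 43.6 and 39.3 CPM in Col-0 and at 76.5, 80.1 and 84.7 CPM in *TT2* OE (log2 ratio 1.04 ± 0.12, adjusted p = 0.00146). *HSPRO2*, named for a nematode resistance gene of sugar beet, was at 69, 97.2 and 63.3 CPM in Col-0 and at 108, 213 and 127 CPM in *TT2* OE (log2 ratio 0.93 ± 0.10, adjusted p = 0.00083). R2 was the highest library for *HSPRO2* and U2 for *STR18*, and neither gene's groups overlapped. The cell wall linker gene *CWLP*, the called gene with the highest level in the comparison, was at 1482, 1629 and 1043 CPM in Col-0 and at 2070.2, 2830.5 and 1591 CPM in *TT2* OE (log2 ratio 0.63 ± 0.10, adjusted p = 0.0102). The calls on *HCHIB*, *BCB*, AT2G27380, *CYP702A6*, *STR18* and *HSPRO2* held whichever of the 6 libraries was left out. Dropping 1 of the libraries ended the call on *CWLP* (P2 or R2, adjusted p from 0.0812 to 0.146).

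Some genes with annotated roles in peptide signalling or defence were called higher, and they are set side by side here with their values already seen. *PSK2*, a precursor of the growth peptide phytosulfokine, was at 1.24, 1.23 and 1.54 CPM in Col-0 and at 3.87, 4.42 and 4.85 CPM in *TT2* OE (log2 ratio 1.72 ± 0.18, adjusted p = 0.00083). A second precursor, *PSK4*, was at 29.5, 32.8 and 34 CPM in Col-0 and at 55.1, 41.3 and 48.9 CPM in *TT2* OE (log2 ratio 0.58 ± 0.11, adjusted p = 0.0234), and in both genes every *TT2* OE library was above every Col-0 library. *OSM34*, an osmotin, rose from 56.7, 70.3 and 84.7 CPM to 118, 103 and 106 CPM (log2 ratio 0.64 ± 0.12, adjusted p = 0.0219), and the defensin gene *PDF1.1* from 0.473, 0.416 and 0.428 CPM to 1.85, 1.08 and 1.08 CPM (log2 ratio 1.57 ± 0.31, adjusted p = 0.0307). AT3G59930, annotated as defensin-like, was at 12.8, 10.2 and 13.3 CPM in Col-0 and at 43.1, 14.2 and 20.9 CPM in *TT2* OE, and O2 was much the highest (log2 ratio 0.96 ± 0.19, adjusted p = 0.0312). In a list of 19 tested jasmonate genes 1 was called higher and 0 lower (median 0.17, 2 higher and 0 lower at an unadjusted p under 0.05, 2 and 0 by DESeq2). This was *VSP1*, a vegetative storage protein used as a jasmonate marker, at 1.05, 1.37 and 1.26 CPM in Col-0 and at 3.27, 3.62 and 3.93 CPM in *TT2* OE without overlap (log2 ratio 1.55 ± 0.19, adjusted p = 0.0025), and *JAZ7*, a jasmonate repressor outside the list, was also higher (log2 ratio 1.52 ± 0.33, adjusted p = 0.0461). The calls on *PSK2* and *VSP1* held whichever of the 6 libraries was left out. Leaving out a single library ended the calls on *PSK4* (M2, O2 or R2, adjusted p from 0.0966 to 0.142), *OSM34* (M2, O2, P2 or R2, adjusted p from 0.081 to 0.145), *PDF1.1* (any of the 6, adjusted p from 0.0623 to 0.197), AT3G59930 (M2, O2 or R2, adjusted p from 0.0826 to 0.118) and *JAZ7* (any of the 6, adjusted p from 0.0974 to 0.226).

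Of 15 tested salicylate, pipecolate and camalexin genes, 0 were higher and 2 lower, with a median of 0.04 (2 higher and 4 lower at an unadjusted p under 0.05, 0 and 2 by DESeq2). *PR1*, the marker gene of salicylate responses, was low in Col-0 (0.631, 0.125 and 0.235 CPM) and had 1 count in *TT2* OE (0.0215, 0 and 0 CPM), 37.4-fold lower by the summed counts (95% exact interval 6.35 to 1514, adjusted p = 0.0112). *ALD1*, which makes the pipecolate precursor, was at 1.63, 0.956 and 1.28 CPM in Col-0 and at 0.495, 0.185 and 0.0813 CPM in *TT2* OE (log2 ratio -2.40 ± 0.41, adjusted p = 0.0149). In both genes every *TT2* OE library was below every Col-0 library. With 1 library left out, the test ended the calls on *PR1* (M2, O2 or R2, adjusted p from 0.0514 to 0.0904) and *ALD1* (P2, R2 or S2, adjusted p from 0.0566 to 0.0989). The fitted fold of *ALD1* moved by a factor of more than 1.5 without O2 (log2 ratio -2.98).

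Few genes of seed maturation were called higher. Of 13 tested seed storage and maturation genes 1 was higher and 0 lower, with a median of 0.26 (3 higher and 1 lower at an unadjusted p under 0.05, 2 and 0 by DESeq2), and 9 further members of the list had too few counts. *M17*, a late embryogenesis abundant gene, was at 0.526, 0.561 and 0.513 CPM in Col-0 and at 2.54, 1.67 and 2.38 CPM in *TT2* OE (log2 ratio 2.03 ± 0.29, adjusted p = 0.00531). The vicilin-like cupin gene AT2G28490, which is not in the list, was at 0.473, 0.727 and 0.855 CPM in Col-0 and at 2.63, 2.22 and 4.5 CPM in *TT2* OE (log2 ratio 2.15 ± 0.25, adjusted p = 0.00165), and *PAP85*, another vicilin-like gene, was at 0.184, 0.81 and 0.684 CPM in Col-0 and at 1.4, 3.57 and 0.948 CPM in *TT2* OE (log2 ratio 1.75 ± 0.38, adjusted p = 0.0461). AT2G28490 and *PAP85* are both outside the list and are set beside *M17* with their values already seen. All 3 genes had groups that did not overlap. The 2S albumin genes of the list were too low to test, the 12S globulin gene *CRA1* was at 0.605, 0.187 and 0.235 CPM in Col-0 and at 0.667, 0.741 and 0.758 CPM in *TT2* OE without a call (adjusted p = 0.288), and *ABI3*, a master regulator of seed maturation, had a log2 ratio of -0.40 (adjusted p = 0.315). Summed over the 13 genes, levels were 36.7, 49.6 and 52.2 CPM in Col-0 and 47.3, 52.0 and 73.6 CPM in *TT2* OE, and these groups overlapped. The calls on *M17* and AT2G28490 held whichever of the 6 libraries was left out. Omitting 1 library ended the call on *PAP85* (M2, O2, P2 or R2, adjusted p from 0.131 to 0.362). The fitted ratio of *PAP85* was 2.39 without S2 and 2.39 without U2, and 1.46 to 1.59 without any 1 of the other libraries.

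Genes for the breakdown of amino acids and of inositol were among the rises. *THA1*, threonine aldolase, was at 59.98, 33.8 and 57.8 CPM in Col-0 and at 139.7, 108 and 109 CPM in *TT2* OE (log2 ratio 1.28 ± 0.15, adjusted p = 0.00165), with no overlap. *BCAT-2*, a mitochondrial transaminase of branched-chain amino acids, was at 64.7, 28.3 and 85.7 CPM in Col-0 and at 158, 74.3 and 128 CPM in *TT2* OE (log2 ratio 1.09 ± 0.15, adjusted p = 0.00523). *BCDH BETA1*, a subunit of the dehydrogenase that follows it, was at 24.6, 10.2 and 16.4 CPM in Col-0 and at 32.5, 13.7 and 23.4 CPM in *TT2* OE (log2 ratio 0.44 ± 0.10, adjusted p = 0.0461). R2 and P2 were the lowest libraries of their genotype for these 3 genes, each of which overlaps a neighbour on the other strand. Among the myo-inositol oxygenases, which feed inositol into cell wall sugars, *MIOX4* was at 2.05, 0.956 and 0.513 CPM in Col-0 and at 5.79, 4.68 and 1.52 CPM in *TT2* OE (log2 ratio 1.80 ± 0.23, adjusted p = 0.00257). *MIOX2* was at 83.2, 76.7 and 25.6 CPM in Col-0 and at 161, 162 and 33.9 CPM in *TT2* OE (log2 ratio 0.82 ± 0.13, adjusted p = 0.00841), and *MIOX1* was called with a log2 ratio of 0.49 (adjusted p = 0.0494). For these U2 and S2 were lowest, and the rise was seen within each round. *AKINBETA1*, a subunit of the energy-sensing kinase SnRK1, was at 96.6, 62.1 and 111 CPM in Col-0 and at 149, 114 and 127 CPM in *TT2* OE (log2 ratio 0.57 ± 0.11, adjusted p = 0.0308). *BT2*, a BTB-TAZ protein gene that responds to sugar and nitrogen, was at 276, 59.3 and 41.5 CPM in Col-0 and at 361, 173 and 66.5 CPM in *TT2* OE (log2 ratio 0.90 ± 0.19, adjusted p = 0.0408), and its steps between rounds were larger than those between genotypes. The calls on *THA1*, *BCAT-2* and *MIOX4* held whichever of the 6 libraries was left out. Without 1 library or another the test ended the calls on *BCDH BETA1* (any of the 6, adjusted p from 0.0839 to 0.312), *MIOX2* (M2, P2 or R2, adjusted p from 0.0638 to 0.0966), *MIOX1* (any of the 6, adjusted p from 0.098 to 0.242), *AKINBETA1* (M2, O2, P2 or R2, adjusted p from 0.104 to 0.287) and *BT2* (M2, P2, R2, S2 or U2, adjusted p from 0.0563 to 0.233). These genes are set together by their annotated roles after their values were seen.

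Root triterpene genes, which lie in clusters on the chromosome, had 2 of 8 tested members higher and 0 lower (median 0.44, 5 higher and 0 lower at an unadjusted p under 0.05, 2 and 0 by DESeq2). *MRN1*, marneral synthase, was at 0.237, 0.831 and 1.39 CPM in Col-0 and at 1.72, 3.55 and 5.61 CPM in *TT2* OE (log2 ratio 2.20 ± 0.23, adjusted p = 0.00083). *CYP708A2*, which hydroxylates thalianol, was at 3.87, 4.84 and 3.27 CPM in Col-0 and at 5.51, 9.13 and 6.23 CPM in *TT2* OE (log2 ratio 0.79 ± 0.14, adjusted p = 0.0196), and both genes had groups that did not overlap. *THAS1*, thalianol synthase, had a log2 ratio of 0.56 (adjusted p = 0.115). The call on *MRN1* held whichever of the 6 libraries was left out. Dropping 1 of the libraries ended the call on *CYP708A2* (M2, P2, R2, S2 or U2, adjusted p from 0.0605 to 0.223).

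Of 22 tested aliphatic glucosinolate genes 3 were higher and 0 lower (median 0.34, 9 higher and 2 lower at an unadjusted p under 0.05, 4 and 0 by DESeq2), all with low counts. *CYP83A1*, an oxidase of the core pathway, was at 0.316, 0.519 and 0.171 CPM in Col-0 and at 0.775, 2.57 and 1.0 CPM in *TT2* OE (log2 ratio 2.12 ± 0.35, adjusted p = 0.0122), and *MAM1*, which lengthens the side chain, was at 0.526, 0.374 and 0.214 CPM in Col-0 and at 1.18, 2.91 and 0.948 CPM in *TT2* OE (log2 ratio 2.14 ± 0.45, adjusted p = 0.0404). R2 was the highest library in both. *CYP79F1*, the first core enzyme, had 0 counts in Col-0 and stood at 0.108, 0.635 and 0.217 CPM in *TT2* OE, at least 13.5-fold higher (adjusted p = 0.0256). In *MYB5* OE the same 3 genes were at 1.5 and 8.52, 1.75 and 9.84 and 0.0751 and 1.62 CPM in N2 and Q2, and the difference between *TT2* OE and *MYB5* OE was not called (log2 ratios of -1.38, -1.30 and -0.97, adjusted p of 0.243, 0.772 and 1). Of 10 tested genes of glucosinolate breakdown 1 was lower and 0 higher (median 0.08, 2 higher and 2 lower at an unadjusted p under 0.05, 0 and 2 by DESeq2). *TGG2*, a myrosinase, was at 13.3, 14.2 and 13.4 CPM in Col-0 and at 4.56, 7.65 and 2.76 CPM in *TT2* OE without overlap (log2 ratio -1.53 ± 0.20, adjusted p = 0.00368). *TGG1*, the major myrosinase, was also lower in every *TT2* OE library, at 1652, 1731 and 1604 CPM in Col-0 and at 1170.1, 1344 and 1183 CPM in *TT2* OE, and was not called (log2 ratio -0.44, adjusted p = 0.0591). The call on *TGG2* held whichever of the 6 libraries was left out. Leaving out a single library ended the calls on *CYP83A1* (P2 or R2, adjusted p from 0.0815 to 0.152), *MAM1* (O2, P2, R2, S2 or U2, adjusted p from 0.0726 to 0.324) and *CYP79F1* (M2 or P2, adjusted p from 0.0527 to 0.311, and too few counts to be tested without R2). The fitted ratio of *MAM1* was 2.85 without M2 and 1.34 without P2.

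Heat shock genes, on which the study centred, were not called in unstressed seedlings by the test used here. The study reported *HSFA2* as raised in unstressed *TT2* OE seedlings by Q-PCR. From its own analysis of its RNA sequencing it listed *HSFA3*, *HSFA7A*, *MBF1C* and *HSP90.1* as raised, and it placed *HSFA2* in its network of raised stress genes. That analysis found more differing genes in *TT2* OE than the test used here. Of 20 tested heat shock factors and coactivators 0 were called (5 higher and 0 lower at an unadjusted p under 0.05, 0 by DESeq2), with a median of 0.16. Of 20 tested heat-induced chaperones and cofactors 0 were called (5 higher and 0 lower at an unadjusted p under 0.05, 0 by DESeq2), with a median of 0.29. In each list 17 of the 20 ratios were above 0. *HSFA2*, the factor whose promoter the study used as bait, was at 0.368, 3.26 and 0.898 CPM in Col-0 and at 0.237, 3.89 and 2.11 CPM in *TT2* OE (log2 ratio 0.46 ± 0.30, adjusted p = 0.586). It was above its partner in rounds 2 and 3 and below it in round 1, and the rounds differed far more than the genotypes. *HSFA3* was at 2.84, 2.08 and 3.31 CPM in Col-0 and at 4.33, 3.41 and 5.2 CPM in *TT2* OE and *HSFA7A* at 20.7, 13.9 and 19.7 CPM in Col-0 and at 24.7, 20.8 and 25.9 CPM in *TT2* OE, both without overlap but not called (adjusted p of 0.0735 and 0.0837). With no filter on low counts *HSFA3* was called. *HSP90.1*, a cytosolic chaperone, was at 8.81, 31.8 and 16.3 CPM in Col-0 and at 9.27, 40.2 and 24.8 CPM in *TT2* OE (adjusted p = 0.211), and *MBF1C*, a heat-induced coactivator, at 4.73, 14.9 and 22.9 CPM in Col-0 and at 5.34, 19 and 37.5 CPM in *TT2* OE (adjusted p = 0.0955). The chaperones were most above Col-0 in round 3, where the list's median difference was 0.52, against 0.02 in round 1.

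**Figure D3:**
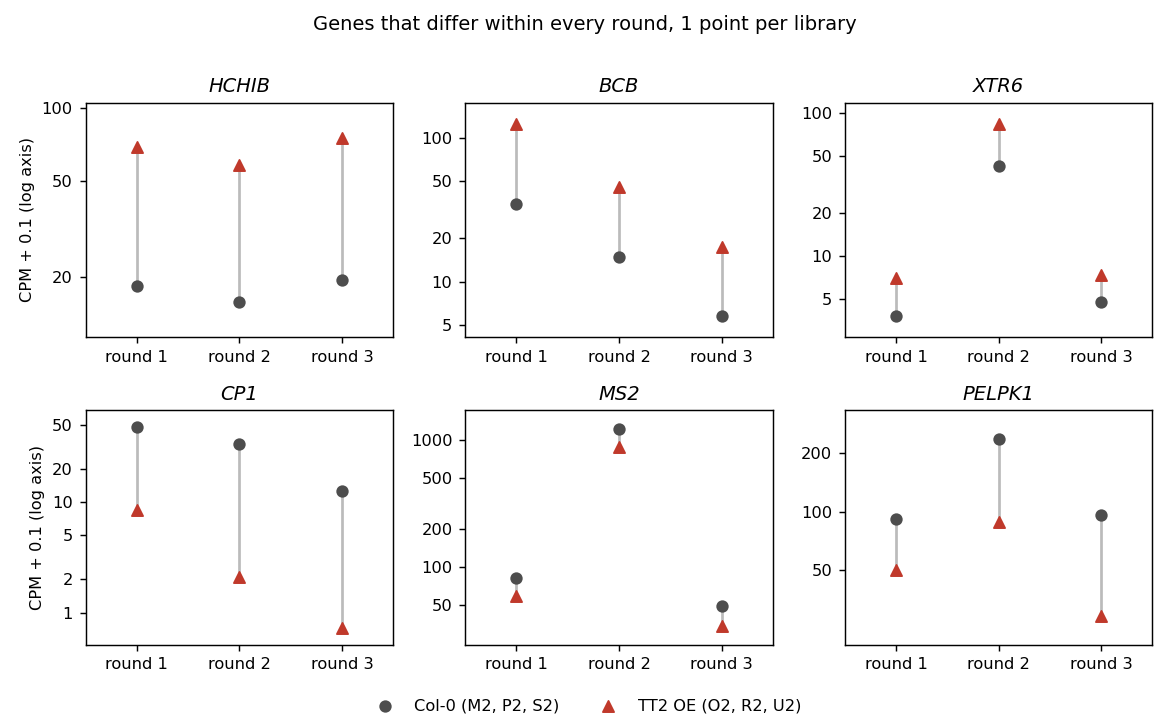
Level in CPM + 0.1 (log axis) in each Col-0 and *TT2* OE library, with a line joining the libraries of each round. Drawn are *HCHIB*, *BCB*, *XTR6*, *CP1*, *MS2* and *PELPK1*. For each gene the *TT2* OE library lies on the same side of its Col-0 partner in every round. The rounds stand far apart for *MS2* and *XTR6* and close together for *HCHIB*. Log2 differences within rounds were alike for *BCB* (1.85, 1.62 and 1.59) and less so for *CP1* (-2.49, -4.00 and -4.13).

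Several called genes differed between rounds far more than between genotypes. *MS2*, a methionine synthase, was at 82.2, 1209 and 49.6 CPM in Col-0 and at 59, 869 and 34.5 CPM in *TT2* OE, with P2 and R2 far above the others, and was called lower (log2 ratio -0.49 ± 0.09, adjusted p = 0.0256). *AGP18*, an arabinogalactan protein, was at 24.1, 211 and 17.7 CPM in Col-0 and at 32.7, 310.1 and 23.62 CPM in *TT2* OE and was called higher (log2 ratio 0.47 ± 0.09, adjusted p = 0.0233). *XTR6*, a xyloglucan endotransglucosylase, was at 3.71, 42.9 and 4.66 CPM in Col-0 and at 6.93, 84.2 and 7.26 CPM in *TT2* OE (log2 ratio 0.85 ± 0.11, adjusted p = 0.00261), and *PHI-1* was at 10.8, 163 and 4.9 CPM in Col-0 and at 21.8, 198 and 7.77 CPM in *TT2* OE (log2 ratio 0.63 ± 0.12, adjusted p = 0.0284). None of the 4 was called with genotype alone in the model, and the cause of the steps between rounds was not tested. With 1 library left out, the test ended the calls on *MS2* (any of the 6, adjusted p from 0.0621 to 0.281), *AGP18* (M2, O2, P2 or R2, adjusted p from 0.0803 to 0.208), *XTR6* (R2, adjusted p = 0.0609) and *PHI-1* (M2, O2, S2 or U2, adjusted p from 0.0663 to 0.178).

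The falls with the smallest p were in 2 neighbouring genes on chromosome 2. AT2G39850, a subtilisin-like protease, was at 9.71, 25.5 and 15.1 CPM in Col-0 and at 0.0215, 0.0265 and 0.108 CPM in *TT2* OE (log2 ratio -8.29 ± 0.28, adjusted p = 1e-08). *TOPP4*, a type 1 protein phosphatase that acts in gibberellin and light signalling, was at 21.1, 20.7 and 15.4 CPM in Col-0 and at 1.76, 0.952 and 1.22 CPM in *TT2* OE (log2 ratio -3.86 ± 0.16, adjusted p = 1.21e-07). In AT2G39850 the *TT2* OE libraries held 6 counts in all against 2303 in Col-0. The genes around the pair were not called: *DAR2* and AT2G39855, on either side, had log2 ratios of -0.11 and -0.26 (adjusted p of 0.864 and 0.861). *MYB5* OE was at 23.2 and 16.5 CPM for *TOPP4* and at 7.66 and 25.4 CPM for AT2G39850, in the range of Col-0, and *TT2* OE differed from it (log2 ratio -3.79 ± 0.18, adjusted p = 3.41e-07 for *TOPP4*, log2 ratio -8.15 ± 0.30, adjusted p = 2.11e-08 for AT2G39850). Of the 9 tested *TOPP* phosphatase genes *TOPP4* was the called one (list median -0.09), and *TOPP6* had the highest log2 ratio, 0.46 (adjusted p = 0.398). The calls on *TOPP4* and AT2G39850 held whichever of the 6 libraries was left out. The ratio of AT2G39850 is set by few counts, and was -7.55 without R2, -9.32 without S2 and -9.32 without U2.

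A second set of deep falls joined proteases, wall-loosening enzymes and a lipoxygenase. *CP1*, a cysteine protease, was at 47.8, 33.3 and 12.6 CPM in Col-0 and at 8.44, 1.98 and 0.623 CPM in *TT2* OE (log2 ratio -3.48 ± 0.32, adjusted p = 0.000406). *EXPA2*, an expansin known from the endosperm of germinating seeds, was at 13.4, 10.9 and 4.47 CPM in Col-0 and at 1.46, 0.767 and 0.867 CPM in *TT2* OE (log2 ratio -3.23 ± 0.32, adjusted p = 0.000522). *GH9B15*, a glycosyl hydrolase of the endoglucanase family, was at 12.3, 5.13 and 7.99 CPM in Col-0 and at 2.04, 0.238 and 0.298 CPM in *TT2* OE (log2 ratio -3.71 ± 0.46, adjusted p = 0.0025). In all 3 genes the Col-0 and *TT2* OE libraries were apart, and M2 and O2 were the highest libraries of their genotype. *LOX1*, a 9-lipoxygenase, was at 101, 98.4 and 98.2 CPM in Col-0 and at 56, 38.5 and 31.8 CPM in *TT2* OE (log2 ratio -1.29 ± 0.15, adjusted p = 0.00165). The lectin gene AT3G21380 was at 9.5, 17.37 and 13.2 CPM in Col-0 and at 2.82, 1.85 and 1.76 CPM in *TT2* OE (log2 ratio -2.61 ± 0.23, adjusted p = 0.000247), *CYP709B2* was at 9.58, 12 and 6.97 CPM in Col-0 and at 2.71, 1.56 and 1.71 CPM in *TT2* OE (log2 ratio -2.29 ± 0.24, adjusted p = 0.00083), and AT1G29100, of a heavy metal transport family, was at 2.58, 2.12 and 1.9 CPM in Col-0 and at 0.28, 0.238 and 0.163 CPM in *TT2* OE (log2 ratio -3.30 ± 0.34, adjusted p = 0.00083). AT5G46960, an invertase or pectin methylesterase inhibitor, was at 6.47, 1.21 and 1.69 CPM in Col-0 and at 1.87, 0.291 and 0.244 CPM in *TT2* OE (log2 ratio -2.14 ± 0.31, adjusted p = 0.00531), and here O2 lay within the range of Col-0. *EXPA2* was the called gene among 24 tested expansins (median -0.10, 1 higher and 4 lower at an unadjusted p under 0.05, 1 and 1 by DESeq2), and *GH9B15* overlaps a gene on the other strand by 251 bases. The calls on *CP1*, *EXPA2*, *GH9B15*, *LOX1*, AT3G21380, *CYP709B2*, AT1G29100 and AT5G46960 held whichever of the 6 libraries was left out. The fitted fold moved by a factor of more than 1.5 in some (log2 ratios of -4.22 without M2 for *CP1*, and of -4.90 without M2 and -4.35 without O2 for *GH9B15*).

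Root genes fell in part. Of 15 tested suberin genes 5 were lower (*FAR5*, *ABCG6*, *CYP86A1*, *GPAT5* and *ASFT*) and 0 higher, with a median of -0.65, and 0 higher and 13 lower at an unadjusted p under 0.05, 0 and 5 by DESeq2. *CYP86A1*, which hydroxylates the fatty acids of suberin, was at 13.2, 12.7 and 8.57 CPM in Col-0 and at 8.18, 4.74 and 3.95 CPM in *TT2* OE without overlap (log2 ratio -1.06 ± 0.15, adjusted p = 0.0043). *FAR5*, a fatty acyl reductase, was at 2.84, 13.1 and 2.69 CPM in Col-0 and at 1.16, 5.56 and 1.44 CPM in *TT2* OE (log2 ratio -1.16 ± 0.16, adjusted p = 0.00526), and *ABCG6*, a transporter of suberin precursors, at 6.26, 53 and 21 CPM in Col-0 and at 4.33, 23.8 and 7.34 CPM in *TT2* OE (log2 ratio -1.11 ± 0.15, adjusted p = 0.00391). P2 and R2 were the highest libraries of their genotype for *FAR5* and *ABCG6*. *GPAT5* (log2 ratio -0.81 ± 0.14, adjusted p = 0.0128) and *ASFT* (log2 ratio -0.58 ± 0.13, adjusted p = 0.045) also had P2 and R2 highest, and *ASFT* overlaps a gene on the other strand. The summed level of the 15 genes was 276, 850.0 and 402 CPM in Col-0 and 270.5, 859 and 359 CPM in *TT2* OE, overlapping. Such a sum is set mostly by the members with the highest CPM, whereas 1 of the 15 fitted log2 ratios was above 0. Root hair genes had 0 calls among 15 tested (0 at an unadjusted p under 0.05, 0 by DESeq2). Root class III peroxidases had 2 of 21 lower and 0 higher (median -0.11, 1 higher and 6 lower at an unadjusted p under 0.05, 0 and 2 by DESeq2): *PRX22* was at 37.5, 37.5 and 43.1 CPM in Col-0 and at 29.5, 22.3 and 27.8 CPM in *TT2* OE (log2 ratio -0.57 ± 0.10, adjusted p = 0.0209), and *PRX11* was called as well (log2 ratio -0.84, adjusted p = 0.0484). Omitting 1 library ended the calls on *CYP86A1* (R2, adjusted p = 0.0609), *FAR5* (P2 or R2, adjusted p from 0.0729 to 0.119), *ABCG6* (R2, adjusted p = 0.0553), *GPAT5* (M2, P2 or R2, adjusted p from 0.0527 to 0.173), *ASFT* (O2, P2, R2, S2 or U2, adjusted p from 0.08 to 0.375), *PRX22* (M2, P2, R2, S2 or U2, adjusted p from 0.0615 to 0.245) and *PRX11* (any of the 6, adjusted p from 0.0676 to 0.431).

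Nutrient uptake genes were among the falls. *NAS1*, which makes the metal chelator nicotianamine, was at 8.26, 49.2 and 17.7 CPM in Col-0 and at 5.06, 19 and 6.83 CPM in *TT2* OE (log2 ratio -1.18 ± 0.14, adjusted p = 0.00163). *SULTR1;2*, the main sulfate uptake transporter of roots, was at 65.5, 51.7 and 48.2 CPM in Col-0 and at 52.5, 25.4 and 25.8 CPM in *TT2* OE (log2 ratio -0.75 ± 0.12, adjusted p = 0.0112), and *AMT1;2*, an ammonium transporter, at 33.8, 129 and 56.8 CPM in Col-0 and at 22.7, 96.8 and 42 CPM in *TT2* OE (log2 ratio -0.47 ± 0.09, adjusted p = 0.0187). *PHT1;1*, a phosphate transporter, had groups that did not overlap, at 100.5, 110.5 and 94.4 CPM in Col-0 and at 83.3, 76.4 and 64.7 CPM in *TT2* OE (log2 ratio -0.45 ± 0.09, adjusted p = 0.0255). *GLT1*, NADH-dependent glutamate synthase, was at 739, 520.4 and 620.0 CPM in Col-0 and at 576, 384 and 469.9 CPM in *TT2* OE (log2 ratio -0.40 ± 0.09, adjusted p = 0.0446), and it overlaps a gene on the same strand by 127 bases. *CHX17*, a cation/H+ exchanger of roots, was at 13.1, 29.5 and 20.3 CPM in Col-0 and at 8.61, 12.2 and 11.5 CPM in *TT2* OE (log2 ratio -0.91 ± 0.13, adjusted p = 0.00618), also without overlap. The call on *NAS1* held whichever of the 6 libraries was left out. Without 1 library or another the test ended the calls on *SULTR1;2* (P2 or R2, adjusted p from 0.0926 to 0.148), *AMT1;2* (M2, O2, P2 or R2, adjusted p from 0.08 to 0.209), *PHT1;1* (M2, P2, R2, S2 or U2, adjusted p from 0.0527 to 0.28), *GLT1* (any of the 6, adjusted p from 0.0956 to 0.348) and *CHX17* (R2, adjusted p = 0.102). This set, too, was put together after the values were seen.

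Few genes at the entry to phenylpropanoids and lignin were called. Of 18 tested genes 2 were lower and 0 higher, with a median of -0.20 (0 higher and 9 lower at an unadjusted p under 0.05, 0 and 2 by DESeq2). Both were phenylalanine ammonia-lyases: *PAL1* was at 76.4, 288 and 96 CPM in Col-0 and at 56.1, 195 and 64.3 CPM in *TT2* OE (log2 ratio -0.53 ± 0.08, adjusted p = 0.00815), and *PAL4* at 18.9, 41.5 and 34.6 CPM in Col-0 and at 13.2, 28.6 and 23.9 CPM in *TT2* OE (log2 ratio -0.53 ± 0.09, adjusted p = 0.0122). *XCP1*, *XCP2* and *BFN1*, which are known from the death of xylem vessel cells and are named with their values already seen, were also lower. *XCP1*, a cysteine protease, was at 22.9, 15.9 and 15.67 CPM in Col-0 and at 16.3, 10.5 and 10.104 CPM in *TT2* OE (log2 ratio -0.57 ± 0.10, adjusted p = 0.0148), its relative *XCP2* followed (log2 ratio -0.49, adjusted p = 0.0355), as did the nuclease gene *BFN1* (log2 ratio -0.69, adjusted p = 0.0459). Dropping 1 of the libraries ended the calls on *PAL1* (P2 or R2, adjusted p from 0.0638 to 0.139), *PAL4* (M2, O2, P2 or R2, adjusted p from 0.054 to 0.141), *XCP1* (M2, O2, P2 or R2, adjusted p from 0.0557 to 0.145), *XCP2* (any of the 6, adjusted p from 0.0571 to 0.267) and *BFN1* (any of the 6, adjusted p from 0.0953 to 0.297).

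Many of the small falls had a common place. Of the 145 lower genes, 63 lay between AT5G06830 and AT5G09530 (TAIR10.1 chromosome 5, bases 2116509 to 2961382). These edges are the first and last lower genes between AT5G06000 and AT5G10000, so that the interval was set by the values it summarises. Of 199 genes tested within these edges, 190 had a ratio below 0 and 0 were higher, and the median log2 ratio was -0.41, a fold of 0.753. The shift was alike in the 3 rounds, with medians of -0.43, -0.41 and -0.40. Further out the shift was not seen: the median was 0.025 from AT5G05000 to AT5G05999 and 0.004 from AT5G10000 to AT5G10999. Over the wider stretch from AT5G06000 to AT5G10000, 242 of 312 tested genes had a ratio below 0, with a median of -0.31. There 0 of the 312 genes were called higher (5 at an unadjusted p under 0.05, 1 by DESeq2). *MYB5* OE had the same shift, with a median of -0.43 over the 199 genes against the same Col-0 libraries, and *TT2* OE and *MYB5* OE differed by a median of 0.0069. Because both lines are set against the same 3 Col-0 libraries, a change in the overexpressors and one in the Col-0 seedlings cannot be told apart.

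**Figure D4:**
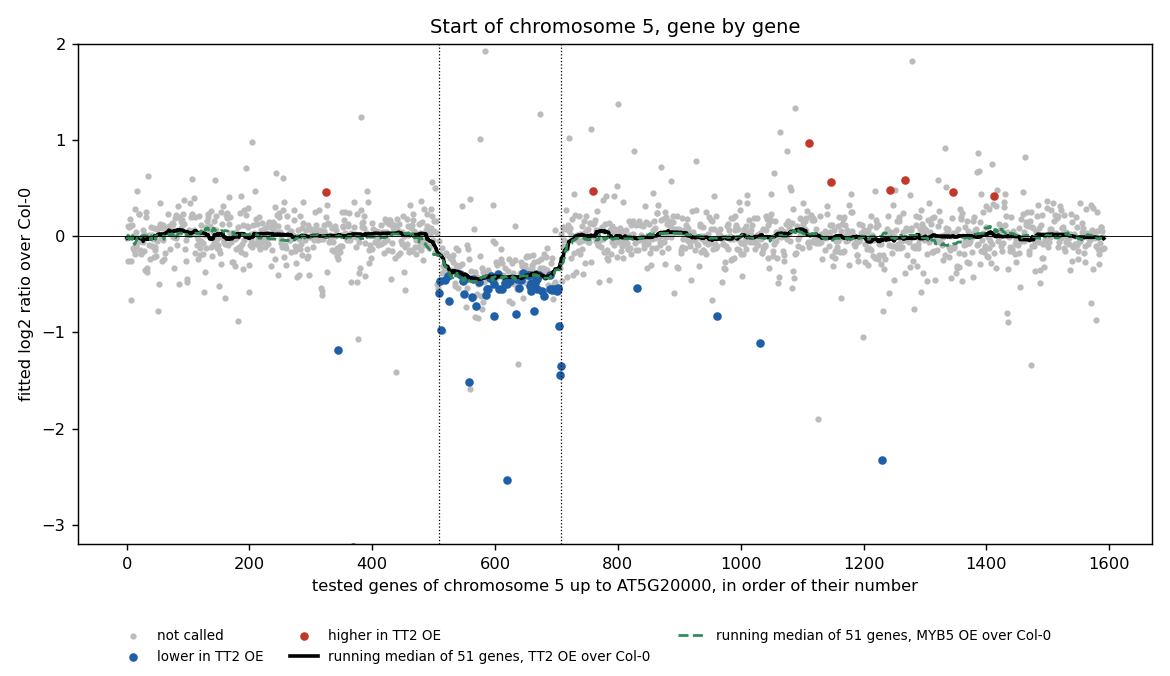
Fitted log2 ratio of *TT2* OE over Col-0 (vertical axis) for 1591 tested genes along chromosome 5 in gene order (horizontal axis), with called genes in colour and a running median over 51 genes; 2 genes lie outside the axis. The running median dips over the stretch from AT5G06000 to AT5G10000. The 199 genes from AT5G06830 to AT5G09530, the first and last lower genes of that stretch, have a median of -0.41.

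The genes of the stretch have unlike roles. *PELPK1*, a cell wall protein gene at its far end, had the smallest p there, at 91.5, 238 and 96.6 CPM in Col-0 and at 49.7, 88 and 28.8 CPM in *TT2* OE (log2 ratio -1.35 ± 0.13, adjusted p = 0.000522), and its neighbour *PELPK2* was at 1.53, 14.9 and 3.04 CPM in Col-0 and at 0.968, 4.5 and 0.921 CPM in *TT2* OE (log2 ratio -1.44 ± 0.22, adjusted p = 0.00783). *AGAL2*, an alpha-galactosidase, was at 56.7, 29.7 and 23.4 CPM in Col-0 and at 29.4, 17.41 and 14.4 CPM in *TT2* OE (log2 ratio -0.81 ± 0.10, adjusted p = 0.00165), and the aspartyl protease gene AT5G07030 was at 59.2, 59.1 and 34.8 CPM in Col-0 and at 35.9, 42.2 and 19.8 CPM in *TT2* OE (log2 ratio -0.67 ± 0.09, adjusted p = 0.00418). Both had groups that overlapped, with a fall within each round. *SNRK2.1*, a protein kinase of osmotic stress, was at 121, 93.8 and 99.1 CPM in Col-0 and at 83.4, 69.5 and 71.3 CPM in *TT2* OE (log2 ratio -0.48 ± 0.08, adjusted p = 0.0122), and the NAC factor gene *ATAF2* at 30.1, 26.4 and 28.8 CPM in Col-0 and at 21.5, 16.8 and 19.2 CPM in *TT2* OE (log2 ratio -0.57 ± 0.09, adjusted p = 0.00905), neither with overlap. The ATP synthase beta genes AT5G08670 (log2 ratio -0.44, adjusted p = 0.0276), AT5G08680 (log2 ratio -0.44, adjusted p = 0.0219) and AT5G08690 (log2 ratio -0.55, adjusted p = 0.0106) were called as well, and whether reads were divided between these 3 genes of 1 family was not tested. *AGAL2*, *SNRK2.1*, *ATAF2* and AT5G08670 overlap genes on the other strand. The calls on *PELPK1*, *AGAL2* and AT5G07030 held whichever of the 6 libraries was left out. Leaving out a single library ended the calls on *PELPK2* (P2 or R2, adjusted p from 0.115 to 0.166), *SNRK2.1* (M2, O2, P2 or R2, adjusted p from 0.0702 to 0.129), *ATAF2* (M2, P2 or R2, adjusted p from 0.051 to 0.144), AT5G08670 (any of the 6, adjusted p from 0.0894 to 0.201), AT5G08680 (any of the 6, adjusted p from 0.064 to 0.223) and AT5G08690 (M2, O2, P2 or R2, adjusted p from 0.0647 to 0.145). Outside the stretch 82 genes were lower.

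*TT2* OE was also set against *MYB5* OE, with 12 genes higher (0.0589% of 20380 tested without both transgenes) and 21 lower (0.103%). Of the genes called against Col-0, 10 were higher than in *MYB5* OE as well (*BAN*, *DFR*, *HCHIB*, *BCB*, AT2G27380, *CYP702A6*, *M17*, AT1G29600, AT3G59930 and AT4G15390), and 14 were lower (among them *TOPP4*, AT2G39850, *CP1*, *EXPA2*, *GH9B15*, *LOX1*, *PR1*, AT1G29100, AT3G21380 and *CYP709B2*). *BAN* had 1 count in *MYB5* OE and was 114-fold higher in *TT2* OE by the summed counts (95% exact interval 20.1 to 4515, adjusted p = 0.0168), and *DFR* had 0.10 and 0.347 CPM (log2 ratio 4.16 ± 0.64, adjusted p = 0.022), both near Col-0. *HCHIB* was at 22.9 and 15.8 CPM (log2 ratio 1.74 ± 0.11, adjusted p = 1.08e-05) and *BCB* at 58.5 and 19.7 CPM, above its round partners in Col-0 but below those in *TT2* OE (log2 ratio 1.12 ± 0.11, adjusted p = 0.000821). *CYP702A6* was at 0.225 and 0.44 CPM, and AT2G27380 at 3.98 and 4.08 CPM (log2 ratio 2.94 ± 0.36, adjusted p = 0.00585 and log2 ratio 1.76 ± 0.22, adjusted p = 0.0061). *PR1* was at 3.03 and 0.857 CPM in *MYB5* OE, 231-fold above its 1 count in *TT2* OE (95% exact interval 40.8 to 9173, adjusted p = 0.000581), and *GH9B15*, at 34.2 and 2.27 CPM, and *CP1*, at 81.6 and 15.9 CPM, had N2 above and Q2 below their Col-0 partners. The comparison has 2 libraries of *MYB5* OE, both in rounds that *TT2* OE shares.

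*LDOX* was at 0.175 and 0.255 CPM in *MYB5* OE, lower than in *TT2* OE, but that difference did not pass the test (log2 ratio 2.87 ± 0.65, adjusted p = 0.234). *TT8* was at 0.401 and 0.811 CPM in *MYB5* OE within or above the range of *TT2* OE, and the difference was not called (log2 ratio -0.34 ± 0.50, adjusted p = 1). *TT4* was at 7.11 and 46.1 CPM in *MYB5* OE and again missed the threshold (log2 ratio 1.90 ± 0.34, adjusted p = 0.054). Against the shared Col-0 libraries, the *MYB5* OE ratio was on the same side of 0 for 132 of the 141 higher and 136 of the 145 lower genes of *TT2* OE, a count that the shared controls alone can raise.

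The study drew 4 gene networks from these libraries, which are therefore not independent evidence of direction. Of its raised stress network 12 of 67 tested genes were higher and 0 lower (median 0.46, 53 higher and 0 lower at an unadjusted p under 0.05, 20 and 0 by DESeq2), and of its raised network of secondary metabolism 12 of 34 were higher and 0 lower (median 0.44, 19 higher and 2 lower at an unadjusted p under 0.05, 14 and 0 by DESeq2). *ERF72*, an ethylene response factor of the former, was at 55.2, 53.3 and 81.1 CPM in Col-0 and at 63.1, 87 and 148 CPM in *TT2* OE (log2 ratio 0.59 ± 0.12, adjusted p = 0.0276), and *GSTF6*, a glutathione transferase in both, was at 14.4, 7.71 and 9.62 CPM in Col-0 and at 36.7, 25.8 and 16 CPM in *TT2* OE (log2 ratio 1.28 ± 0.15, adjusted p = 0.00183). Of its lowered stress network 14 of 48 genes were lower and 0 higher (median -0.47, 1 higher and 35 lower at an unadjusted p under 0.05, 0 and 16 by DESeq2), with 7 members in the chromosome 5 stretch, and of its lowered network of secondary metabolism 8 of 36 were lower and 0 higher (median -0.44, 0 higher and 25 lower at an unadjusted p under 0.05, 0 and 12 by DESeq2), with 2 in the stretch. *MLP28*, of the major latex protein family, was at 302, 325 and 315 CPM in Col-0 and at 176, 193 and 234 CPM in *TT2* OE without overlap (log2 ratio -0.65 ± 0.09, adjusted p = 0.00538), and *DOX1*, a dioxygenase of fatty acids, was at 286, 300.4 and 278 CPM in Col-0 and at 194, 142 and 135 CPM in *TT2* OE (log2 ratio -0.92 ± 0.18, adjusted p = 0.0256). The call on *GSTF6* held whichever of the 6 libraries was left out. With 1 library left out, the test ended the calls on *ERF72* (P2, R2, S2 or U2, adjusted p from 0.0999 to 0.264), *MLP28* (R2, adjusted p = 0.111) and *DOX1* (O2, P2, R2, S2 or U2, adjusted p from 0.0777 to 0.186).

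The remaining lists had few calls. Of 23 tested tau glutathione transferases 1 was lower and 0 higher: *GSTU22*, at 11, 8.87 and 7.52 CPM in Col-0 and at 6.5, 5.69 and 5.53 CPM in *TT2* OE without overlap (log2 ratio -0.62 ± 0.14, adjusted p = 0.0461). The list's median was -0.08 (0 higher and 6 lower at an unadjusted p under 0.05, 0 and 2 by DESeq2). Circadian clock genes had 0 calls among 12 tested (3 higher at an unadjusted p under 0.05, 1 by DESeq2; median 0.11), although *TOC1*, a core gene of the evening, was at 205, 19.2 and 21 CPM in Col-0 and at 252, 21.6 and 23.9 CPM in *TT2* OE and so separated round 1 from the others in both genotypes. Outside this list *RVE1* (log2 ratio 0.46, adjusted p = 0.0478) and *EPR1*, relatives of the morning clock MYB genes, were called higher. The 10 leaf photosynthesis genes had 0 calls (0 at an unadjusted p under 0.05, 0 by DESeq2; median -0.0022). Omitting 1 library ended the calls on *GSTU22* (any of the 6, adjusted p from 0.0523 to 0.292), *RVE1* (any of the 6, adjusted p from 0.0583 to 0.362) and *EPR1* (any of the 6, adjusted p from 0.0773 to 0.301).

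**Figure D5:**
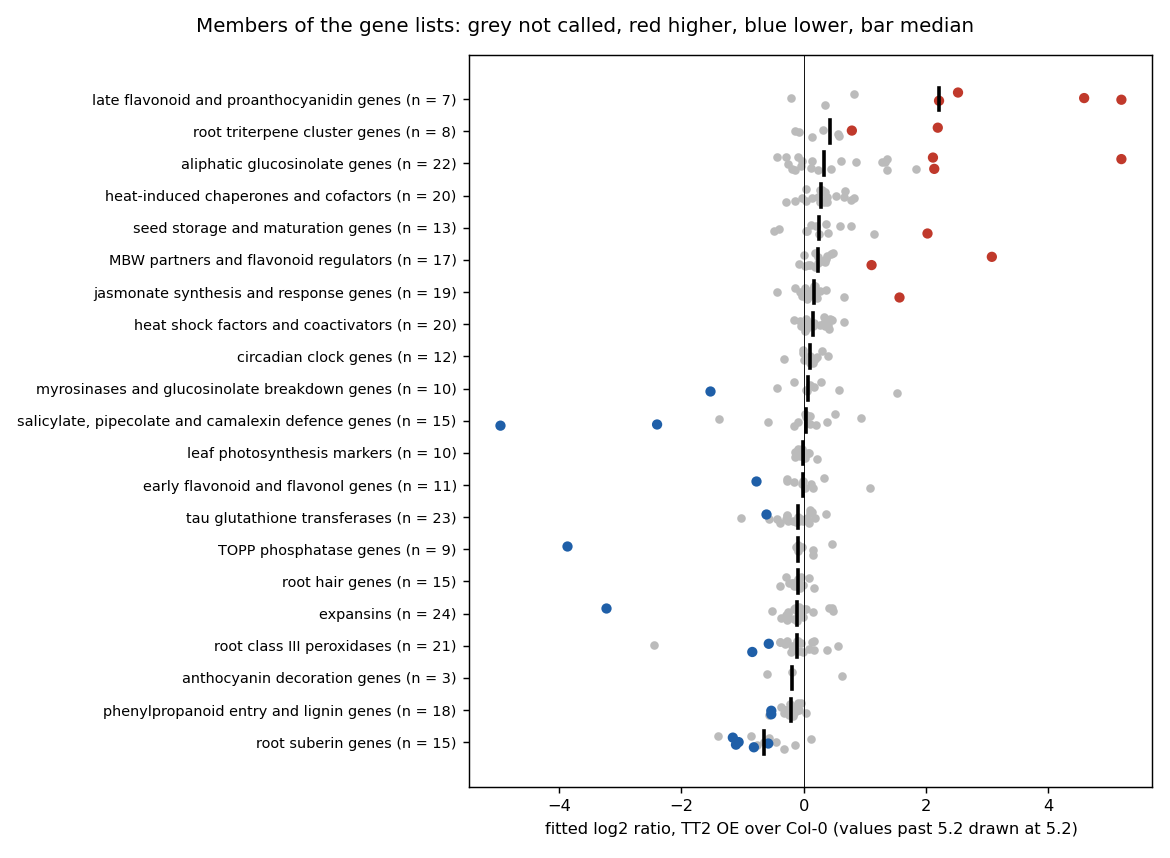
Fitted log2 ratio of *TT2* OE over Col-0 (horizontal axis) of each tested member of 21 gene lists, ordered by median (black bar); red points were called higher, blue points lower and grey points were not called, and 2 members past 5.2 are drawn at the edge. Late flavonoid genes have the highest median, 2.22, and root suberin genes the lowest, -0.65.

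A few genes had counts in 1 genotype alone. Besides *BAN*, AT1G62333 (an uncharacterized protein) had 0 counts in Col-0 and stood at 0.667, 0.582 and 0.894 CPM in *TT2* OE, at least 31.4-fold higher (adjusted p = 0.00391). AT1G56100, an invertase or pectin methylesterase inhibitor, stood at 0.603, 0.45 and 0.704 CPM, at least 26-fold higher (adjusted p = 0.0122), and the transporter gene *ABCB16* at 0.452, 0.556 and 0.569 CPM, at least 23-fold higher (adjusted p = 0.0146). AT1G62333 was also present in *MYB5* OE, at 0.35 and 0.463 CPM, whereas AT1G56100 had 0 counts there. *HSD1*, a hydroxysteroid dehydrogenase, was at 1.05, 0 and 0.948 CPM against 0 in Col-0, so that R2 had none, and a copy of it (AT5G50600) has 100% identity. AT1G53885 had all of its counts of these 6 libraries in S2, at 2.42 CPM, and is identical to AT1G53903. AT1G48598 was at 0.132, 2.2 and 6.97 CPM in Col-0 and at 0.0861, 0.0265 and 0.163 CPM in *TT2* OE (log2 ratio -4.77 ± 0.63, adjusted p = 0.00388), and AT5G15948 at 0.684, 3.1 and 17.7 CPM in Col-0 and at 0, 1.38 and 2.55 CPM in *TT2* OE (log2 ratio -2.33 ± 0.44, adjusted p = 0.0247), so that P2 and S2 made up most of the Col-0 level of both. Calls on *HSD1*, AT1G53885, AT1G24881 and *EPR1* concern genes with near-identical copies, between which reads may have been divided. The call on AT1G62333 held whichever of the 6 libraries was left out. Without 1 library or another the test ended the calls on AT1G56100 (M2 or R2, adjusted p from 0.0527 to 0.0609), *ABCB16* (M2, P2 or R2, adjusted p from 0.0571 to 0.1), *HSD1* (M2, O2 or U2, adjusted p from 0.0523 to 0.0779), AT1G53885 (U2, adjusted p = 1, and too few counts to be tested without S2), AT1G48598 (too few counts to be tested without P2 or S2) and AT5G15948 (S2 or U2, adjusted p from 0.178 to 0.206). The fitted folds of the last 2 genes moved by a factor of more than 1.5 without 1 library (log2 ratios of -5.55 without O2 and -3.91 without U2 for AT1G48598, and of -3.13 without P2 and -2.96 without R2 for AT5G15948).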

How the data were processed

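RNA of whole seedlings had been extracted with an RNeasy kit, made into libraries with a NEBNext Ultra Directional kit and sequenced on an Illumina NextSeq instrument. The authors mapped reads to TAIR10 with CLC Genomics Workbench 10 and deposited total read counts for each gene, whole numbers that were used as they stand. The strand setting of the counting is not given in the sources used here. Left unused were 24 columns of normalized values and 4 columns of a library that matches no sample.

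Genes were filtered by edgeR's filterByExpr by genotype (20382 of 28496 kept, the transgene included), scaled by TMM and tested over all 8 libraries by the quasi-likelihood method of edgeR 4.0.16 (R 4.3.3), with genotype and round in the model, and p adjusted over all genes tested (Benjamini-Hochberg, threshold 0.05). The labels do not state separate cultures, although the study describes independent biological replicates, so that p-values measure the spread between these libraries. Pairing by round was checked on deviations from the group means: libraries of the same round correlated at 0.85, 0.764 and 0.737. All other pairs of a *TT2* OE and a Col-0 library were negative. The deviations of a genotype sum to 0, which pushes these pairs below 0 once the pairs of the same round are above it. The negative values are therefore no further evidence for the pairing. The rounds come from the letters of the library codes and not from a stated replicate number. A check for duplicate libraries found 0.

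Named genes were the 12 largest rises and 12 largest falls among called genes with at least 1 CPM in the higher genotype and 1 direction in the 3 rounds, genes that the study names, members of the lists by smallest p, and at most 6 genes of the chromosome 5 stretch. Others, such as *CWLP*, *MS2*, *NAS1*, *MIOX1* and AT3G59930, were chosen after their values were seen. The comparison, the members and the gene lists were chosen with earlier results of these data known. Differences within rounds used 0.1 CPM added to each value. Where a group had 0 counts its floor was set at 3, summed over its libraries, and floors and 95% exact (Clopper-Pearson) intervals cover counting error only. Promoters and gene positions came from RefSeq's annotation of TAIR10.1, which held 20304 of the genes tested, and near-identical copies were sought with BLAST+ 2.17.0 (at least 95% identity). The code was tested on simulated data. The alternatives tried were DESeq2 1.42.0, relative log expression factors, no filter, no round term, the 6 libraries alone, a minimum fold of 1.5, the genes outside AT5G06000 to AT5G10000 and each library left out in turn. Other tools were limma 3.58.1, Python 3.11.15, pandas 2.3.3, numpy 2.4.6, scipy 1.17.1 and matplotlib 3.10.9.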

Additional observations from a re-analysis of the deposited data

How the results depend on the processing

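Of the 286 calls, 0 changed sign under any alternative. The pairing decided the number of calls: with no replicate block, that is with genotype alone in the model, 0 genes were higher and 1 was lower, the members called fell to 0 in each of the 15 gene lists with calls other than the *TOPP* list, and the medians of the phenylpropanoid list and the heat shock factor list were -0.21 and 0.21. DESeq2 called 244 genes higher, and leaving out the filter on low counts gave 235 higher genes. The fit on the 6 libraries alone, without *MYB5* OE, gave 208 higher and 187 lower genes. A test against a minimum fold of 1.5 left 19 higher and 19 lower genes. Without the genes from AT5G06000 to AT5G10000 64 genes were lower. Leaving out each library in turn gave from 31 to 139 higher and from 23 to 116 lower genes, lowest without R2. The fits without S2 and without U2 both lose the comparison within round 3 and gave nearly the same counts (139 and 138 higher, 113 and 116 lower genes). With only the bases before the start searched, the shares of promoters were 70.7% for the AC-rich element among lower genes, and among all genes 67.7% for the AC-rich element, 87.3% for the MYB core, 56.3% for the E-box, 7.43% for the G-box and 21.9% for the site II element. Depth limits genes with low counts: the smallest called log2 ratio was 1.52 in size under 1 CPM, 0.49 from 1 to 10 CPM and 0.39 above 100 CPM.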
